A study of Mus musculus with 384 samples.

Results

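The cells described here are those of 1 plate of mice heterozygous for floxed Nfib, cKO plate 3, sorted by whether Sca-1 was on their surface. Sca-1 is the protein of Ly6a. The Sca-1-positive gate filled rows A and B of the plate with 23 cells and the Sca-1-negative gate rows C to H with 66. A cell was kept when 1000 or more genes other than the spike-in RNAs reached 1 TPM (a level relative to all transcripts of the cell, corrected for transcript length). That left 87 of 89 cells, 22 positive and 65 negative, of 378 kept in the whole series. The mice carried Sox9-CreER, NFIBfl/+, NFIXfl/fl and R26-YFPfl/fl, were labelled male and were taken at postnatal day 70, and single cells came from back skin. Both gates therefore share the alleles: Cre recombinase under the control of Sox9 sequences and activated by tamoxifen, 1 floxed Nfib allele, both Nfix alleles floxed, and a YFP reporter. Every cell was sorted as DAPI-negative, integrin α6-positive and YFP-positive, and differed by gate in Sca-1 alone. The dKO mice set beside them differ in carrying NFIBfl/fl; their plate 2 held 19 kept Sca-1-positive and 61 kept Sca-1-negative cells.

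Sca-1 is carried by basal cells of the epidermis and of the mouth of the hair follicle, and is low or absent on the bulge, the niche in the lower permanent follicle where stem cells rest in telogen. Bulge stem cells are known for Cd34, Lgr5 and the transcription factors Sox9, Nfatc1 and Tbx1. Nuclear factor I (NFI) proteins bind DNA as dimers and help keep stem cell chromatin open. YFP marks cells in which the recombinase acted and their descendants, so the gate comparison asks how labelled cells with Sca-1 differ from labelled cells without it.

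The labels name no animal, and cells are not replicates, so each gate counts as 1 sample. No test was made, no p-value or standard error is given, and the gate and the plate rows cannot be told apart. SDs and ranges below are over cells. A gene was called measured when its 2 gate means averaged at least 5 TPM, and past the size rule when the ratio of mean TPM (with 1 TPM added to each) was at least 2 or at most 0.5 and mean log2(TPM + 1) differed by at least 1 in the same direction. Cells at 10 TPM or above counted as positive for that gene. Shares carry exact Clopper-Pearson 95% intervals, which cover counting error only. Where a share is 0, the limit that a count of 0 allows, 3 cells of the total, is given with the upper end of the exact interval. TPM keeps no read depth, so genes detected stand in for it: the median was 4808 per positive cell (3660 to 6167) and 5044 per negative cell (3507 to 6818). The 18S ribosomal row Rn18s-rs5 took 60.4% (SD 5.49) of the TPM in positive cells and 55.3% (SD 5.39) in negative cells. The median log2 ratio of all measured genes was -0.15, and its part in each ratio was not tested. Under a size factor that puts that median at -0.01, 79 of 82 named genes past the rule kept it and 3 lost it.

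Of 6639 measured genes, 199 were past the size rule and higher in Sca-1-positive cells (3.00%) and 385 were lower (5.80%). With the size factor the counts were 273 higher and 308 lower, so higher genes made up 34.1% of those past the rule as deposited and 46.99% after scaling. Over all measured genes, both positive rows lay above all 6 negative rows in mean log2(TPM + 1) for 6.78% and below them for 7.58%. Among genes past the size rule this held for 160 of the 199 and 265 of the 385. Ribosomal protein genes, 76 measured with a median log2 ratio of 0.12, and 15 mitochondrial genes, with a median of -0.12, had no member past the rule in either direction.

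The defining markers bear on the label hair follicle stem cells in opposite ways. Keratinocyte identity was shared: Krt5, a basal keratin, was at 10 TPM or more in 22 of 22 positive and 60 of 65 negative cells, and Trp63, the master factor of stratified epithelia, in 22 and 65. Itga6, the integrin of the sort, averaged 75.2 TPM in positive and 40.3 TPM in negative cells. The bulge markers Cd34, Lgr5 and Tbx1 reached 10 TPM in 0 of 22 positive cells, which allows a share of up to 13.6% for each (exact upper end 15.4%). In the negative gate they did so in 16, 14 and 16 of 65 cells, so most cells there lacked each of them too. Other bulge genes were present in positive cells, Nfatc1 in 6, Sox9 in 4 and Krt15 in most. Of the 20 genes of the bulge list, 3 or more were at 10 TPM in 13 of 22 positive and 55 of 65 negative cells. Few markers of other cell types were measured, but 5 cells of the plate held 3 or more genes of such a list at 10 TPM. Schwann and nerve genes did so in 3 of 22 positive and 1 of 65 negative cells, and immune genes in 0 and 1. Without the 5 cells, 7 of 82 named genes past the rule lost it. None of 13 immune, 8 fibroblast, 6 Merkel cell or 5 erythroid genes was measured, and the fibroblast genes were at 0 in every positive cell. Summed over the immune list, single cells ranged from 0 to 64.9 TPM in the positive and from 0 to 107.95 TPM in the negative gate, each with a median of 0. In the melanocyte list only Mitf was measured, at 2.33 and 11.4 TPM, with 2 and 13 cells positive. In the endothelial and mural list only Cspg4 was measured. It was past the rule at 0.74 and 16.5 TPM, with 0 and 32 cells positive. In the Schwann and nerve list 4 of 7 were measured, summed levels ran from 0.76 to 125.1 TPM in positive and from 0 to 154.7 TPM in negative cells, and Ngfr alone was past the rule (7.96 against 2.05 TPM), which it lost under 8 of 14 alternatives.

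A positive-gate cell stood apart from the others, that of well A5. It had Ly6a at 0, Krt79, a keratin of the upper follicle duct, at 995 TPM, Calml3 at 93.6 TPM, Mgst1 at 160.5 TPM, Ptgr1 at 105.5 TPM and Gclm at 83.05 TPM, with 4943 genes detected. It held all of the Krt79 and Calml3 RNA of its gate: over the other 21 positive cells both were listed at 0. Without it, 209 genes were higher and 424 lower. Each mean below includes it, and the values without it are given where they differ by more than 1.5 times.

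For the secreted and signalling genes that mark the positive gate the promoters are shown first, with that of Cd34, the bulge marker that goes the other way. They are the 250 bases before the annotated start, 5′ to 3′ on the strand of the gene, from RefSeq on GRCm38.p6. Il1r2 lies at chr1:40085843-40086092 (plus), Il33 at chr19:29924863-29925112 (plus, the upstream of its listed starts), Ptges at chr2:30903298-30903547 (minus) and Cd34 at chr1:194938571-194938820 (plus). The windows of Il1r2 and Ptges lie inside the GENCODE spans of these genes (chr1:40074079-40125231 and chr2:30889471-30929863), so they belong to internal starts. Capitals mark letters that match a motif searched.
Il1r2: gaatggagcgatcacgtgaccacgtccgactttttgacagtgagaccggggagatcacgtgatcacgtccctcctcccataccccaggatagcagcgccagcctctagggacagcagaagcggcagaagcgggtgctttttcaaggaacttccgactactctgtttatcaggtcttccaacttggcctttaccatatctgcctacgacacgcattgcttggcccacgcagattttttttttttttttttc
Il33: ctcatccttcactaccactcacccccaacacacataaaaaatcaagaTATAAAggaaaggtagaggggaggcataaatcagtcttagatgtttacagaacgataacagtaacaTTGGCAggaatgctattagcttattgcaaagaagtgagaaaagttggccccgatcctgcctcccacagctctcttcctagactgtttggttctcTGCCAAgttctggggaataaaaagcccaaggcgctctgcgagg
Ptges: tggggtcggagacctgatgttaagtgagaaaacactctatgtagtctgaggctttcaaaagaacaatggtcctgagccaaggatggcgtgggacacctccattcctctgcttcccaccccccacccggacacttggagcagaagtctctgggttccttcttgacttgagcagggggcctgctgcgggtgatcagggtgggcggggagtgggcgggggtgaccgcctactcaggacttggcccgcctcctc
Cd34: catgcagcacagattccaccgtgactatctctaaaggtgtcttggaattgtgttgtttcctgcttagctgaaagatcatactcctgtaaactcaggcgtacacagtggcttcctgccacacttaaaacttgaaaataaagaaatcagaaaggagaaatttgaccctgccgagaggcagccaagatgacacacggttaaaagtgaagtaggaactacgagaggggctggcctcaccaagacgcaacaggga
The letters searched were TGANTCA for AP-1, AGATAA for GATA factors, TTGGCA for NFI, GGGCGTG for KLF factors and TATAAA for the TATA box, read on both strands, and no matches overlapped in these stretches. Il33 held the NFI letters at bases -137 and -43 and the TATA letters at -203, and the other 3 held none of the 5. A second listed Il33 window, chr19:29945540-29945789 and not printed, held the TATA letters at -29 and no NFI letters. Among 32851 promoter windows of this length, the NFI letters were in 12.3%, the TATA letters in 12.4%, those for GATA in 9.99%, for KLF in 7.55% and for AP-1 in 6.75%. Counted by gene, since a gene may have several windows, the shares of 27025 genes were 14.1%, 14.3%, 11.4%, 8.64% and 7.82% in that order. Of the 15 highest genes named below, all matched in the table, the NFI and GATA letters were in a window of 2 each and the others in 3 each. Of the 15 lowest, 12 matched, and the counts were 4 for NFI, 4 for KLF, 1 for TATA and 0 for the other two. A match is a description of letters and not a bound site.

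Ly6a itself (chr15:74994877-74998031, minus strand) ran from 0 to 254 TPM with a median of 55.01 in positive cells and from 0 to 245 TPM with a median of 0 in negative cells. Its means were 68.4 and 19.7 TPM, a log2 ratio of 1.75. Since the gate was set on its protein, this difference checks the sort and is not a finding. It was at 10 TPM or more in 18 of 22 positive cells (81.8%, interval 59.7 to 94.8) and in 17 of 65 negative cells (26.2%, interval 16.03 to 38.54). RNA and gate therefore overlapped in both directions.

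Il1r2 encodes a decoy receptor that takes up interleukin-1 without signalling. In positive cells it ran from 0 to 173.05 TPM with a median of 4.97 (mean 32.2, SD 44.8), and in negative cells from 0 to 8.47 TPM with a median of 0 (mean 0.13). It was positive in 10 of 22 cells against 0 of 65, which allows a share of up to 4.62% (exact upper end 5.52%). The log2 ratio was 4.88, the largest of the 4 markers that were higher in the positive gate. Ptges makes prostaglandin E2 from its precursor. It reached 129.1 TPM in the positive gate, with a median of 2.99 and a mean of 26.8, and no more than 1.92 TPM in the negative gate, with 9 of 22 and 0 of 65 cells positive. Il33, an alarmin that barrier epithelia keep in the nucleus, had a median of 4.64 and a highest value of 188 TPM in positive cells, against a median of 0 and a highest value of 24.4 TPM in negative cells. It was positive in 9 of 22 and 1 of 65 cells, with means of 25.3 and 0.45 TPM. The ranges overlapped at 0 in all 3 genes, and the median positive cell lay below 10 TPM in each.

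The 3 genes were carried by overlapping but unequal sets of cells. Of 22 positive cells, 7 had none, 6 had 1, 5 had 2 and 4 had all 3. At least 1 was present in 15 of 22 positive cells (68.2%, interval 45.1 to 86.1) and in 1 of 65 negative cells (1.54%, interval 0.04 to 8.28). Among the 18 positive-gate cells with Ly6a at 10 TPM or more, each of the 3 was positive in 9. Among the 4 below that level, Il1r2 was positive in 1, the cell of well A2, where Ly6a was at 8.68 TPM, and the others in 0. The 3 cells with Ly6a at 0 had all 3 genes at 0. In the negative gate, where 1 of 65 cells had any of the 3, the count among its 17 Ly6a-positive cells was 0 (exact upper end 19.5%), which is too few cells to show a relation. Below 10 TPM, the highest Il1r2 value of the negative gate, 8.47 TPM, was in a cell with Ly6a at 167.05 TPM.

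**Figure D1:**
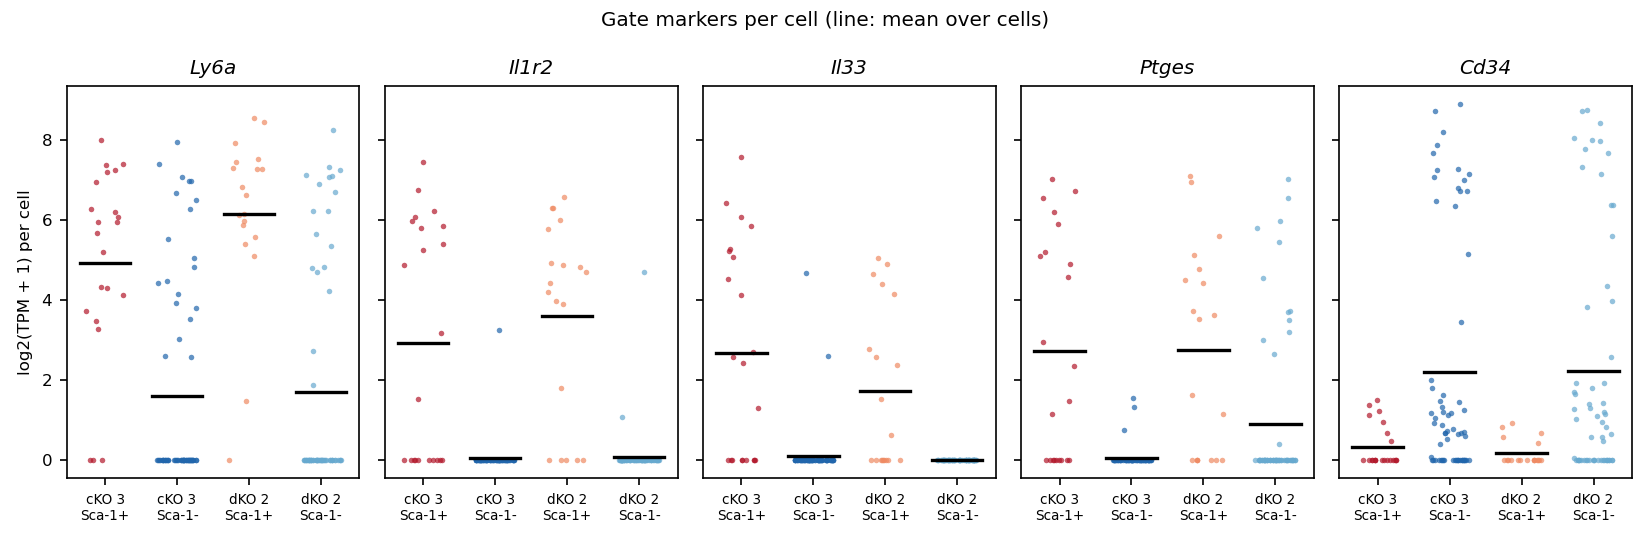
Level of the 5 gate markers in single cells, as log2(TPM + 1), for the Sca-1-positive and Sca-1-negative gates of cKO plate 3 and dKO plate 2. Points are cells and bars their means; Il1r2 and Ptges reach 10 TPM in 10 and 9 of 22 cKO positive cells and in 0 of 65 negative cells, and Cd34 the other way in 0 and 16.

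Cd34, a sialomucin of the bulge, was the mirror of these genes. It ran from 0 to 1.84 TPM in positive cells and from 0 to 474 TPM in negative cells, with means of 0.36 and 44.3 TPM, and 16 of 65 negative cells (24.6%, interval 14.8 to 36.9) were positive. The negative gate was mixed: besides the 16 cells with Cd34, 19 had Krt79 without Cd34, 30 had neither and 0 of 65 had both. Ly6a was at 10 TPM or more in 0 of the 16, 5 of the 19 and 12 of the 30. In the gate means below the negative value is an average over these kinds of cell.

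The 15 genes with the highest ratios under the naming rule (at least 20 TPM and 25% positive cells in the higher gate, and rows apart, met by 82 genes) began with Il1r2, Ptges and Il33. Next came Sema3d, a secreted guidance factor, with a mean of 28.1 TPM (median 20.3, highest 79.4) against 1.32 TPM and 16 of 22 against 2 of 65 positive cells. Slc2a12, a glucose transporter, was positive in 14 and 6 cells (33.9 against 3.64 TPM). Slc16a3, which exports lactate, was positive in 7 and 4 (21.1 against 1.23 TPM). These 2 carriers of sugar and of lactate were higher in the positive gate, by log2 ratios of 2.91 and 3.31. The most abundant of the 15 was Igfbp3, a binding protein of insulin-like growth factors (chr11:7206086-7213923, minus strand). It averaged 163.2 TPM (SD 273) against 17.4 TPM, with 13 of 22 and 5 of 65 cells positive, and single positive cells reached 865 TPM while the median was 24.4. Serpinb2, an inhibitor of the protease urokinase, was more even, at 93.5 TPM (median 43.1, highest 566) against 9.78 TPM, with 16 and 12 cells positive. The others were Il12rb2, a subunit of the interleukin-12 receptor (28.9 against 2.01 TPM), Calm5, a calmodulin-like protein of the epidermis (27.7 against 1.583 TPM), and Chit1, a chitinase (25.3 against 1.52 TPM). Gdpd2, a glycerophosphodiesterase (23.2 against 1.97 TPM), Guca2a, the precursor of guanylin (22.9 against 2.10 TPM), Trex1, a DNA exonuclease (20.5 against 1.35 TPM), and Unkl (26.7 against 3.11 TPM) closed the list. In Guca2a 1 cell at 349 TPM carried most of the mean. Trex1 and Guca2a lost the rule when the highest 5% of cells of each gate, rounded up to whole cells, were left out. That alternative left 4286 measured genes of 6639, so here and below a gene may lose the rule under it by falling under the 5 TPM floor.

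The 15 genes with the lowest ratios (100 met the naming rule) began with Tgm5 and Calml3. Tgm5, an enzyme that joins proteins of the cornified envelope, was listed at 0 in all 22 positive cells and averaged 36.9 TPM in the negative gate, with 18 of 65 positive. Calml3, an epithelial calmodulin-like protein, ran from 0 to 1101 TPM in negative cells, with a median of 55.05 TPM, a mean of 133.3 TPM and 44 of 65 positive. In the positive gate the cell of well A5 was its source. Postn, a matricellular protein, averaged 10.3 TPM with 4 of 22 cells positive against 132.9 TPM (SD 279) with 27 of 65. Fbln1 (0.58 against 25.7 TPM) and Timp2, an inhibitor of matrix metalloproteinases (1.88 against 27.2 TPM, and 0.07 without the cell of well A5), are also secreted. Alcam, an adhesion molecule, was at 10 TPM in 0 of 22 and 34 of 65 cells (0.34 against 22.9 TPM). Bnc2, a zinc finger factor, was positive in 1 and 26 cells (0.86 against 39.8 TPM) and Iqsec1, an exchange factor of ARF GTPases, in 0 and 24. Ldhb, a subunit of lactate dehydrogenase, averaged 3.09 against 31.9 TPM with 4 and 37 cells positive, opposite in direction to the lactate carrier. Vwa2, Nsmf, Esyt3, Ptn, Adgra3 and Sox9, which is described with the bulge genes, completed the list with log2 ratios from -3.51 to -2.68. With rows C and D alone as the negative cells, Postn, Fbln1 and Ptn no longer passed the rule.

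**Figure D2:**
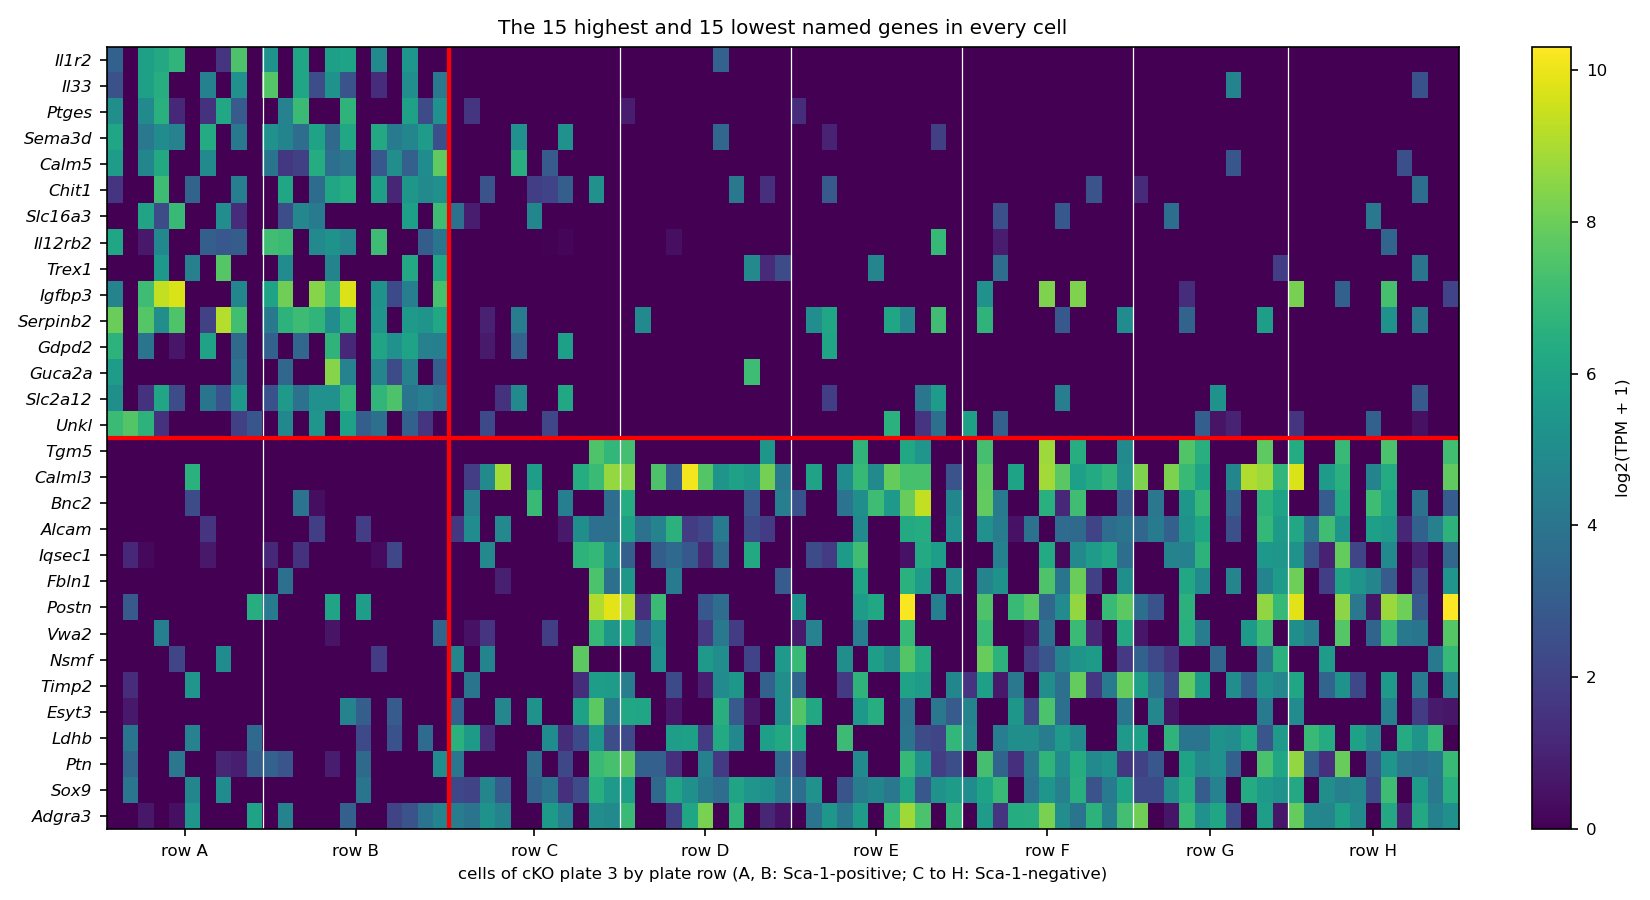
Level of the 15 highest (above the red line) and 15 lowest named genes in every cell, as log2(TPM + 1), with cells ordered by plate row. Rows A and B are the 22 Sca-1-positive cells and rows C to H the 65 negative cells; the higher genes are patchy, with Il1r2 at 10 TPM in 10 of 22 cells, and Calml3 is at 10 TPM in 44 of 65 negative cells and in 1 positive cell, that of well A5.

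Bulge genes were lower as a group. Of 20 on the list 14 were measured, 0 were higher and 11 lower, with a median log2 ratio of -3.14 against -0.15 over all measured genes. Lgr5, a receptor that strengthens WNT signalling, averaged 0.01 TPM in positive and 42.1 TPM in negative cells, 14 of which were positive. Cd200, an immune-inhibitory surface protein, and Tbx1 were listed at 0 in all positive cells and averaged 19.3 and 24.6 TPM in the negative gate. Sox9 (chr11:112782224-112787760, plus strand), the factor whose sequences drive the recombinase, ran from 0 to 31.4 TPM with a median of 0 in positive cells and from 0 to 134.9 TPM with a median of 21.6 in negative cells, with 4 of 22 and 45 of 65 positive. Nfatc1, a factor tied to bulge quiescence, averaged 6.73 against 45.4 TPM with 6 and 46 cells positive. Krt15, a keratin used as a bulge marker, was an exception at 436 and 440 TPM, with 21 and 60 cells positive. Of 6 bulge genes (Cd34, Lgr5, Sox9, Tbx1, Nfatc1 and Postn), 3 or more were present in 1 of 22 positive and 23 of 65 negative cells, and none in 12 and 9. Each of these was lower past the rule, so the count follows from that choice. Over all 20 genes of the list, 3 or more were at 10 TPM in 13 of 22 positive and 55 of 65 negative cells. Lgr5 and Tbx1 lost the rule with rows C and D alone as reference, and Cd200 when the highest cells were left out.

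The 4 positive-gate cells with Sox9 at 10 TPM lay in wells A5, A7, A10 and B4. They had Krt17, a keratin of the follicle and of wounds, at 585, 2607, 368 and 254 TPM, where the median of their gate was 0. Il33 was at 0 in all 4 and Il1r2 at most 1.89 TPM. Ptges was present in A7 alone, at 72.3 TPM. Ly6a RNA was at 19.2 TPM in A7, 16.6 TPM in A10 and 0 in A5 and B4.

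Genes of the upper follicle were lower in 8 of 15 measured members and higher in 1, with a median log2 ratio of -1.20. Lrig1, a negative regulator of growth factor receptors that marks junctional stem cells, averaged 13.5 against 60.8 TPM, with 12 of 22 and 51 of 65 cells positive. Krt79 was at 10 TPM in 1 of 22 and 19 of 65 cells and averaged 45.2 and 171.1 TPM, but the positive mean is that of well A5. Krt17 averaged 183.5 against 460 TPM with 10 and 57 cells positive, Gata6, a duct factor, 1.91 against 11.5 TPM (0.33 without the cell of well A5), and Cst6, a protease inhibitor, 0.28 against 20.8 TPM. Klf5, a factor of proliferating epithelia, was the member that was higher, at 91.2 against 33.02 TPM, and was positive in 22 of 22 and 36 of 65 cells. In the negative gate Klf5 was found in 2 of 16 cells with Cd34, 12 of 19 with Krt79 and 22 of 30 with neither. Krt17 lost the rule with row A alone, Krt79 with row A alone or with all cKO plates as reference, and Gata6 and Cst6 when the highest cells were left out. Cst6 averaged 1.57 and 2.24 TPM in the negative cells of cKO plates 1 and 2 and also lost the rule with all cKO plates as reference and with row B alone. In the sebaceous list 4 of 15 genes were measured and 1, Mgst1, a microsomal glutathione transferase, was lower (8.48 against 23.3 TPM, and 1.24 without the cell of well A5). Mgst1 lost the rule with row A alone and with a pseudocount of 10 TPM, as Gata6 did with the latter.

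Basal keratinocyte genes gave 2 higher and 1 lower of 18 measured (3.00% and 5.80% over all measured genes), with a median log2 ratio of 0.36. Krt14, the keratin partner of Krt5, was the highest in level, from a median of 2424 TPM in positive to 545 TPM in negative cells, with means of 2294 and 806 TPM and 21 and 58 cells positive. Krt5 averaged 1461 against 814 TPM and did not pass the rule. Itga3, a laminin-binding integrin, averaged 52.6 against 19.3 TPM, with 18 and 28 cells positive, and lost the rule with row B alone or with all cKO plates as reference. Aqp3, the glycerol and water channel of basal cells, was the opposite: positive in 6 of 22 and 63 of 65 cells, with medians of 0 and 204 TPM and means of 59.1 and 276 TPM. Among 21 measured hemidesmosome and basement membrane genes, Itga3 was higher and Fbln1, Hspg2 (perlecan, 1.46 against 16.8 TPM) and Npnt (3.41 against 18.8 TPM) lower, with a median of 0.07. Npnt lost the rule with rows C and D alone as reference and with row B alone. Gja1, the gap junction protein connexin 43, was the only 1 of 16 measured junction genes past the rule, at 72.2 against 18.6 TPM with 19 of 22 and 16 of 65 cells positive. The desmosome and adherens genes Dsp, Jup and Cdh1 averaged 115.2, 284 and 108.9 TPM in positive cells and 125.8, 264 and 119.5 TPM in negative cells.

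Suprabasal differentiation genes gave 0 higher and 3 lower of 15 measured, with a median log2 ratio of 0.05. The 3 were Tgm5, Calml3 and Calm4 (9.41 against 56.2 TPM, 3 and 18 cells positive). The keratins of the spinous layer, Krt1 and Krt10, averaged 271 and 168.1 TPM in positive cells and 158.1 and 74.8 TPM in negative cells, were positive in 6 and 4 of 22 and 10 and 13 of 65 cells, and did not pass the rule. Of 10 measured wound keratinocyte genes, S100a10, an annexin partner, was higher (131.9 against 63.8 TPM) and Krt6a (0.08 against 17.6 TPM) and Krt17 were lower. S100a10 lost the rule under 5 of the alternatives, Calm4 under 4, that without the cell of well A5 among them, and Krt6a when the highest cells were left out. In the Ly6 family 6 of 25 genes were measured and Ly6a alone passed. Ly6d averaged 266 and 221 TPM, and Ly6e 92.5 and 198 TPM.

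**Figure D3:**
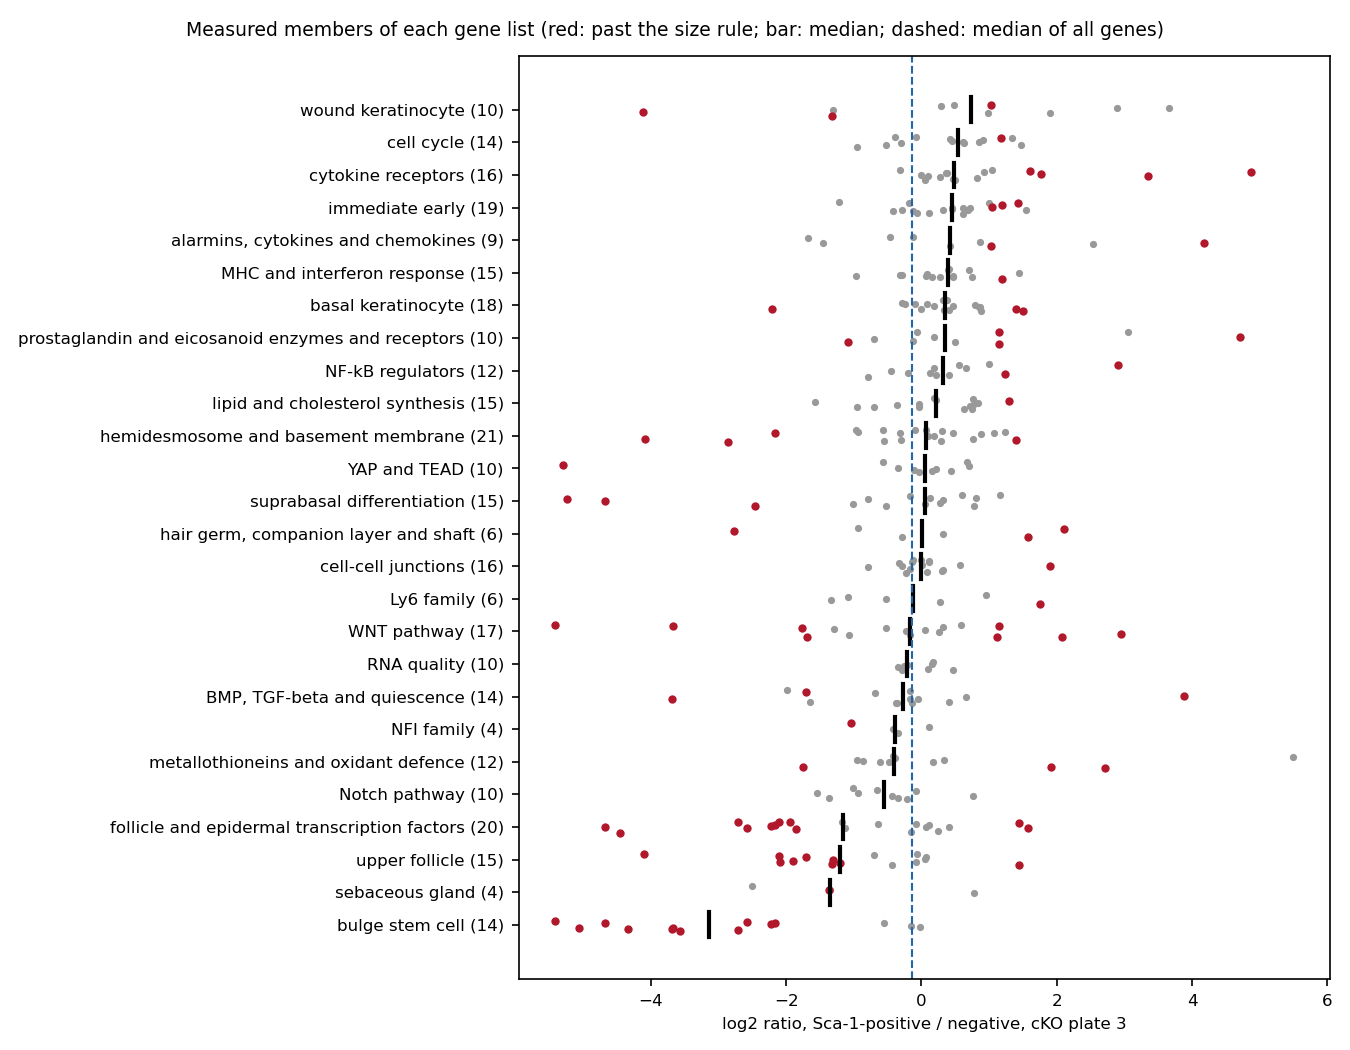
Log2 ratio of Sca-1-positive to Sca-1-negative cells on cKO plate 3 for every measured member of each gene list, with the number measured in brackets. Red points passed the size rule, black bars are list medians and the dashed line is the median of all measured genes (-0.15); bulge genes have a median of -3.14 and basal keratinocyte genes of 0.36.

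Receptors of cytokines were higher in 4 of 16 measured members and lower in 0 (3.00% and 5.80% over all measured genes), with a median log2 ratio of 0.49. Besides Il1r2 they were Il20ra, a receptor subunit for interleukin-20 (11.8 against 0.26 TPM, 5 and 1 cells positive), Il6ra, the receptor of interleukin-6 (20.6 against 6.10 TPM, 13 and 12), and Ifngr2, a subunit of the interferon-γ receptor (15.1 against 3.74 TPM, 7 and 7). Ligands gave 2 higher and 0 lower of 9 measured: Il33 and Il1rn, the interleukin-1 receptor antagonist (36.6 against 17.4 TPM, 14 and 18 cells positive). Il1r2 and Il1rn, both of which limit interleukin-1, were thus higher. Of 10 measured prostaglandin genes, Ptges, Ptgs1, a cyclooxygenase (35.8 against 15.6 TPM), and the prostaglandin carrier Slco2a1 (41.5 against 18.3 TPM) were higher. Ptgr1, which inactivates prostaglandins and leukotrienes, was lower (5.16 against 12.01 TPM, and 0.38 without the cell of well A5). Psmb9, an immunoproteasome subunit, was the only 1 of 15 measured antigen presentation and interferon genes to pass, at 34.3 against 14.4 TPM. H2-K1 and B2m averaged 491 and 591 TPM against 407 and 443 TPM. Ifngr2, Ptgs1, Il1rn, Slco2a1, Il6ra, Il20ra and Psmb9 lost the rule under 2 to 5 alternatives each and Ptgr1 under 6, while Il1r2, Il33 and Ptges kept it under all of those run on named genes. Their ratios were smaller with the negative cells of all 3 cKO plates as reference, at log2 ratios of 3.27, 3.71 and 3.17 against 4.88, 4.18 and 4.71. Those of cKO plates 1 and 2 averaged 0.99 and 6.23 TPM of Il1r2, 0.21 and 2.39 TPM of Il33 and 2.58 and 3.604 TPM of Ptges.

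Metallothioneins, which bind zinc and copper, were among the larger differences of abundant genes. Mt2 had medians of 93.1 and 4.63 TPM and means of 256 and 38.1 TPM, with 19 of 22 and 30 of 65 cells positive. Mt1 had medians of 87.04 and 18.5 TPM and means of 195 and 50.7 TPM, with 19 and 38 positive. Both kept the rule under every alternative run on named genes. The list as a whole gave 2 higher and 1 lower of 12 measured, with a median log2 ratio of -0.41: Gclm, a subunit of the enzyme of glutathione synthesis, was lower (7.07 against 26.1 TPM, and 3.45 without the cell of well A5), and Gpx1 and Prdx1 did not pass. In the negative gate Mt2 was found in 12 of 16 cells with Cd34, 5 of 19 with Krt79 and 13 of 30 with neither.

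Genes of the immediate early class are fast responders to signals and to handling. Of 19 measured, 3 were higher and 0 lower (3.00% and 5.80% over all measured genes), with a median log2 ratio of 0.46. Atf3, a stress-induced repressor, averaged 201 TPM (SD 324) against 73.8 TPM (SD 168.4), with 11 and 21 cells positive. Zfp36, which destabilises cytokine messages, averaged 166.8 against 72.4 TPM, and Junb, an AP-1 subunit, 108.7 against 52.4 TPM. The negative cells of cKO plates 1 and 2 had 133.3 and 279 TPM of Atf3, 172.7 and 202 TPM of Zfp36 and 122.9 and 209 TPM of Junb, so that with all 3 cKO plates as reference none passed and Junb turned to a log2 ratio of -0.23. Of 12 measured NF-kB regulators, Tnfaip3, which ends NF-kB signalling, averaged 91.7 against 11.4 TPM with 8 and 13 cells positive, and Nfkbia, the inhibitor of NF-kB, 128.7 against 54.03 TPM. Nfkbia also lost the rule with all cKO plates as reference. Atf3, Zfp36, Junb and Nfkbia also lost it with row B alone.

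Transcription factors of follicle and epidermis gave 9 lower and 2 higher of 20 measured, with a median log2 ratio of -1.15. Gata3, a factor of the inner root sheath and epidermis, was higher together with Klf5. It had a median of 121.9 TPM in positive and 36.3 TPM in negative cells, means of 132.9 (SD 79.5) and 43.9 TPM (SD 48.9), and 21 of 22 and 44 of 65 cells positive. In the negative gate it was found in 10 of 16 cells with Cd34, 11 of 19 with Krt79 and 23 of 30 with neither. Foxp1 (7.80 against 39.9 TPM), Tcf7l2, a WNT effector (2.60 against 15.1 TPM), Runx1 (3.43 against 15.95 TPM) and Tfap2b (4.72 against 19.7 TPM) were lower beside those already named. Cux1, a homeobox factor, was higher at 23.98 against 4.79 TPM, with 15 and 11 cells positive, and Gli2, an effector of hedgehog signalling, lower at 0.94 against 12.2 TPM. Gli2 lost the rule with rows C and D alone as reference and when the highest cells were left out. Klf5, Foxp1, Tcf7l2, Runx1 and Tfap2b were not among the genes run under the alternatives.

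The NFI family, the target of the floxed alleles, had 1 of 4 members past the rule. Nfib (chr4:82290173-82705750, minus strand) ran to 114.5 TPM with a median of 28.6 in positive cells and to 222 TPM with a median of 57.5 in negative cells, with means of 32.1 (SD 25.7) and 67.1 TPM (SD 48.3) and 19 of 22 and 61 of 65 cells positive. Its log2 ratio of -1.04 lay just past the rule and was lost under 6 of 14 alternatives, the size factor among them (-0.89), although both positive rows lay below all 6 negative rows. Nfix averaged 47.5 and 43.7 TPM, Nfia 35.5 and 47.9 TPM and Nfic 29.9 and 38.2 TPM. A gene-level TPM counts reads from exons outside the floxed part too, so these values do not check recombination.

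**Figure D4:**
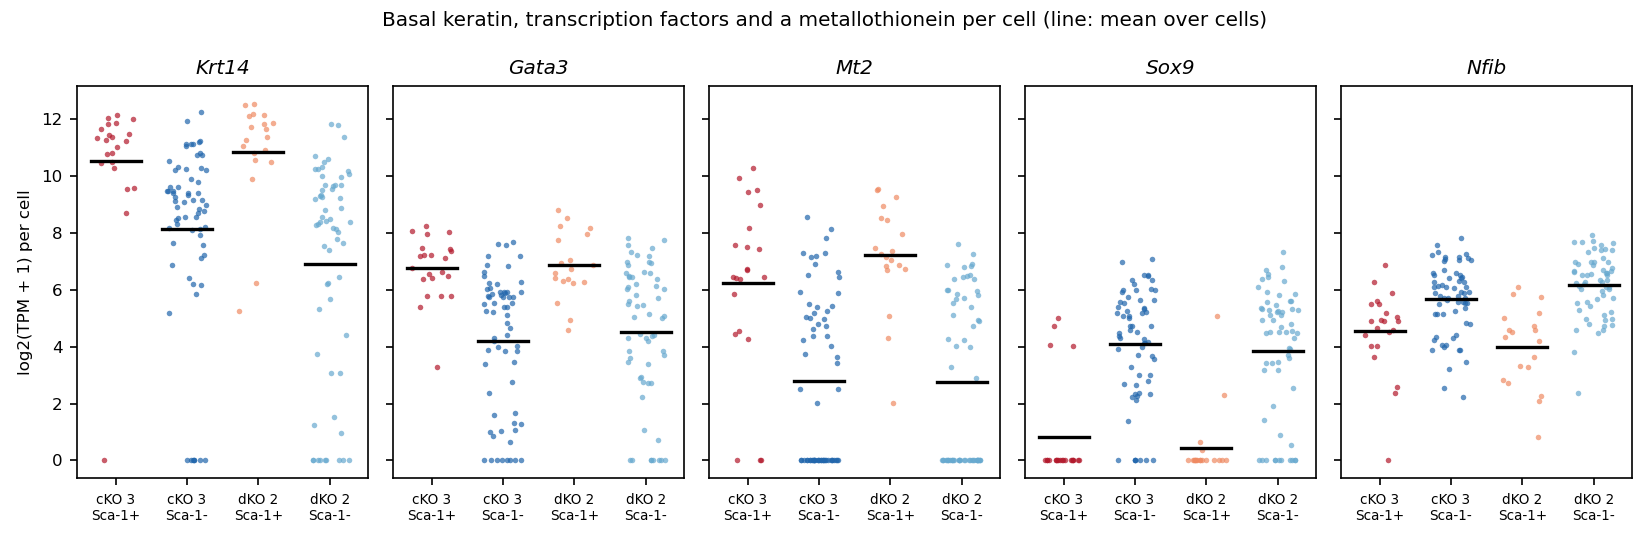
Level of Krt14, Gata3, Mt2, Sox9 and Nfib in single cells, as log2(TPM + 1), by gate on cKO plate 3 and dKO plate 2. Points are cells and bars their means; Krt14, Gata3 and Mt2 average 2294, 132.9 and 256 TPM in cKO positive cells against 806, 43.9 and 38.1 TPM in negative cells, and Sox9 and Nfib 3.98 and 32.1 TPM against 31.5 and 67.1 TPM.

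WNT genes were split, with 4 higher and 4 lower of 17 measured (3.00% and 5.80% over all measured genes) and a median log2 ratio of -0.16. The ligands Wnt3 (18.5 against 1.52 TPM, 13 and 5 cells positive), Wnt16 (29.3 against 6.22 TPM, 11 and 8) and Wnt7b (9.97 against 3.93 TPM) and the receptor Fzd10 (9.97 against 4.04 TPM) were higher. The receptors Lgr5, Lgr4 (3.27 against 12.7 TPM) and Fzd7 (6.12 against 23.2 TPM) and the secreted Dkk3 (0.09 against 12.8 TPM) were lower. Axin2, a target of the pathway, averaged 20.6 and 16.4 TPM. In the BMP and TGF-beta list 1 of 14 was higher and 2 lower. Bmp4, a ligand, averaged 15.3 against 0.11 TPM with 8 and 0 cells positive, while the antagonists Grem1 (listed at 0 against 11.9 TPM) and Fst (5.91 against 21.6 TPM) were lower. The target genes Id1 and Id3 averaged 4.87 and 19.3 TPM in positive and 8.43 and 21.3 TPM in negative cells. None of 10 measured Notch genes passed, with Notch1 at 36.1 and 57.7 TPM. Of 10 measured YAP and TEAD genes Ctgf, a matricellular target, was lower, listed at 0 in all positive cells and at 38.2 TPM in the negative gate, while Cyr61, another such target, averaged 63.2 and 38.4 TPM. Bmp4, Grem1 and Dkk3 lost the rule when the highest cells were left out, and Grem1 and Dkk3 also with rows C and D alone as reference. Fst lost it with row A alone and with a pseudocount of 10 TPM. Wnt7b, Fzd10, Lgr4 and Fzd7 were not run under the alternatives.

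Cell cycle genes gave 1 higher of 14 measured, where 3.00% of all measured genes were higher. It was Ccnd2, a D-type cyclin, at 211 against 93.2 TPM (medians 175.5 and 50.7), which lost the rule with rows C and D alone as reference. Mki67 and Top2a, made in cycling cells, were each at 10 TPM in 2 of 22 positive cells and in 6 and 7 of 65 negative cells. Of 15 measured lipid synthesis genes Fdps, an enzyme of the mevalonate pathway, was higher (27.6 against 10.7 TPM), with a list median of 0.21, and lost the rule with a pseudocount of 10 TPM. Malat1 and mt-Co1, read as signs of RNA quality, averaged 1104 and 1139 TPM in positive and 1347 and 1362 TPM in negative cells, and none of the 10 genes of that list passed.

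The same comparison on dKO plate 2 shares no cell with cKO plate 3, so its values are set side by side, and differences between genotypes were not tested. There 280 of 6534 measured genes were higher in the positive gate (4.29%) and 680 lower (10.4%), with a median log2 ratio of -0.30. Of the 199 genes higher in cKO, 89 were also higher in dKO (44.7% of the cKO and 31.8% of the dKO genes), and 77.4% had a ratio above 1 there. Of the 385 lower in cKO, 45.97% were lower in dKO (26.03% of the dKO genes), and 92.99% had a ratio below 1. With the dKO median at -0.30, most measured genes had a ratio below 1 there. The shares of matching sign for higher and lower genes therefore have unequal baselines. Over 5787 genes measured in both, Pearson's r of the log2 ratios was 0.47 and Spearman's rho 0.37, a description across genes, which are not independent and share a cell type and protocol. Over the 613 genes at 50 TPM or more r was 0.50.

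Among the markers, Ly6a averaged 124.6 TPM in dKO positive and 25.95 TPM in dKO negative cells, Il1r2 28.7 and 0.43 TPM and Cd34 0.16 and 48.4 TPM. Ptges averaged 23.4 and 7.49 TPM, with 10 of 19 and 9 of 61 cells positive, where the negative gate of cKO plate 3 had 0 of 65 and a mean of 0.06 TPM. The negative cells of cKO plates 1 and 2, at 2.58 and 3.604 TPM of Ptges, lay between. Il33 averaged 7.36 TPM in dKO positive cells, with 5 of 19 positive, and was listed at 0 in all dKO negative cells. Its gate means averaged under 5 TPM there, so it was not measured and did not pass the rule in dKO. At least 1 of Il1r2, Il33 and Ptges was present in 16 of 19 positive and 9 of 61 negative dKO cells. Nfib averaged 22.1 and 90.4 TPM there and Nfix 67.1 and 32.3 TPM, which passed the rule. Aqp3 averaged 109.1 and 177.4 TPM and Gja1 82.6 and 57.3 TPM, and neither passed. In the immediate early list, 14 of 19 measured members were higher and 2 lower in dKO, with a median log2 ratio of 2.03. All measured dKO genes gave 4.29% higher and 10.4% lower. In cKO 3 were higher and 0 lower, with a median of 0.46, and none of the 3 passed with all cKO plates as reference. The dKO negative cells averaged 33.2 TPM of Atf3, 42.7 TPM of Zfp36 and 22.7 TPM of Junb. Negative cells of another plate were not used as reference for dKO, so how far its count depends on them was not tested. Krt14 (2821 and 577 TPM), Gata3 (153.3 and 54.7 TPM), Mt2 (252 and 31.3 TPM) and Sox9 (1.96 and 30.6 TPM) had the direction they had in cKO.

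**Figure D5:**
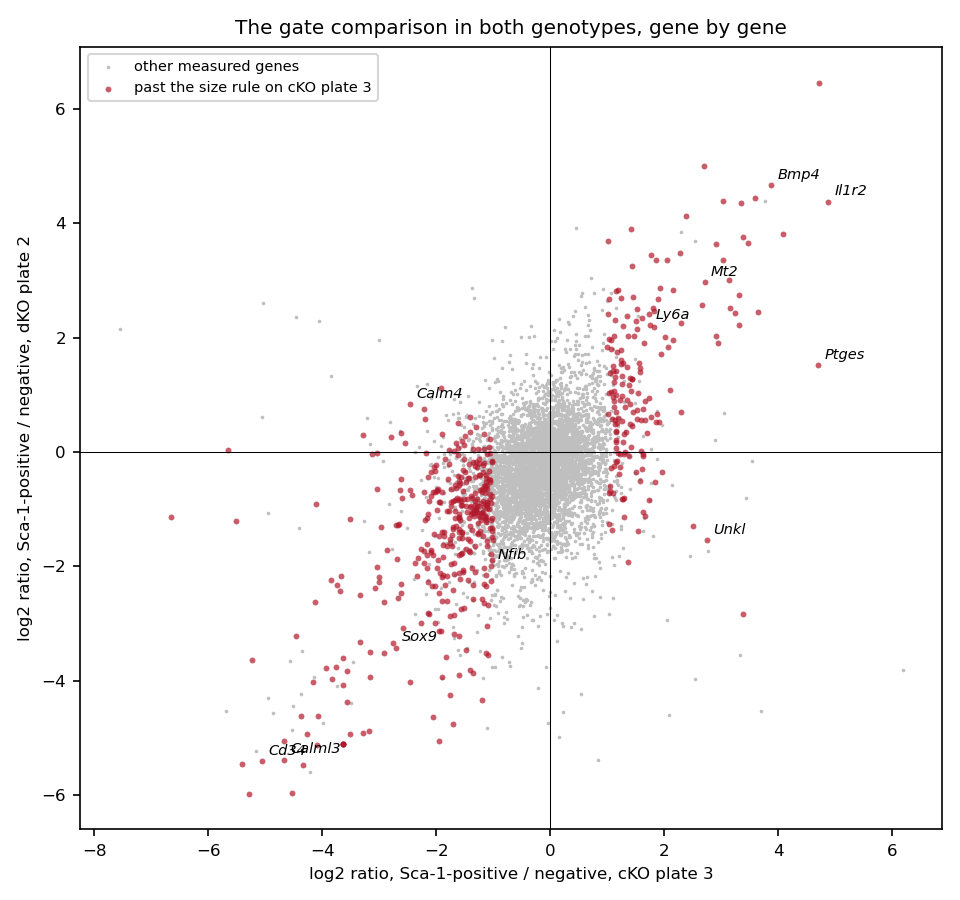
Log2 ratio of Sca-1-positive to Sca-1-negative cells on cKO plate 3 (horizontal) and dKO plate 2 (vertical) for the 5787 genes measured in both. Red points passed the size rule on cKO plate 3; Il1r2 lies at 4.88 and 4.38, Cd34 at -5.06 and -5.41, and Unkl and Calm4 lie in the quadrants of opposite sign.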

How the data were processed

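Each sorted cell was lysed in its own well, and Smart-seq2 cDNA went into paired-end Nextera XT libraries, per the labels' protocols. The protocol carries no molecular identifiers and marks no strand, so an antisense or overlapping gene cannot be separated from its partner. The deposited table holds TPM per gene and cell over 46609 rows, 92 of them ERCC spike-ins; Bowtie2 2.2.9, RSEM 1.2.30 and mm10 (GRCm38) come from the submitters' processing notes, with no annotation release named there. By its model, RSEM splits reads shared by near-identical genes (Ly6a, Krt6a and the like). TPM keeps no depth.

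Groups came from the sorting and genotype labels and plate rows from the titles. The number in a title was read as a plate. Gate means, log2 ratios and shares were computed in Python 3.11.15 with pandas 2.3.3 and scipy 1.17.1, and matplotlib 3.10.9 drew the plots. The ratios were also run on simulated data, with planted changes larger than the rule asks in genes well above the 5 TPM floor. That run does not check calls near the rule, or the shares. Where a symbol had more than 1 row, the row with the higher mean was used. No columns were identical. Wells held single sorted cells, and doublets were not called. Gene positions are from GENCODE on GRCm38. Gene names, lists and the rule for named genes were chosen with earlier results of these data known. That rule took the 5 markers, the NFI family, the 15 highest and 15 lowest genes described in the text and up to 4 members of each list past the size rule, or the 2 most abundant where none passed. Predicted, mitochondrial, ribosomal protein and ERCC rows were left out of the 15 and 15. Other genes named are list members chosen after their values were seen.

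Alternatives changed the pseudocount, the filters on genes and cells, the ratio, the scaling, the negative cells used as reference and the threshold for a positive cell. Row A alone, row B alone and the gate without the cell of well A5 were chosen after seeing the data. Gene by gene, only genes taken by the rule for named genes were followed under the alternatives.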

Additional observations from a re-analysis of the deposited data

Results flagged for a closer look

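Of the named genes past the size rule on cKO plate 3, 3 had the opposite sign in dKO in both the ratio of means and mean log2(TPM + 1); the difference was not tested. Calm4 was lower in cKO positive cells (9.41 against 56.2 TPM) and had a log2 ratio of 0.83 in dKO (51.05 against 28.2 TPM, 8 of 19 and 12 of 61 cells positive). Trex1 was higher in cKO positive cells (20.5 against 1.35 TPM) and had a log2 ratio of -0.99 in dKO (1.63 against 4.24 TPM). Its gate means averaged under 5 TPM in dKO, so it was not measured there, with 1 of 19 and 4 of 61 cells positive. Unkl was higher in cKO positive cells (26.7 against 3.11 TPM) and had a log2 ratio of -1.54 in dKO (3.92 against 13.3 TPM). Fdps, higher in cKO positive cells by a log2 ratio of 1.29, had one of -0.03 in dKO, while its mean log2(TPM + 1) there was higher in the positive gate (3.17 against 2.18).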

How the results depend on the processing

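As deposited, 199 genes were higher and 385 lower in the positive gate; the alternatives that moved either count by over 1.5 times are given as shares of the genes measured under each. A pseudocount of 10 TPM gave 1.16% higher and 2.35% lower. A floor of 20 TPM left 1823 measured genes and gave 3.51% (64 genes) and 5.65%, so the counts fell because fewer genes were measured. A ratio of 1.5 gave 9.53% and 16.1%, and a ratio of 3 gave 0.678% and 1.17%. Removing ERCC and the 5 most abundant rows, with rescaling, gave 4.47% (526 genes) and 7.17% (843 genes) of 11757. With rows C and D alone as reference 5.22% were higher, with positive cells of row A alone 6.38%, and with those of row B alone 4.61% were higher and 9.10% lower. The other alternatives stayed within 1.5 times of the counts as deposited. Of 82 named genes past the rule, 43 kept it under all 14 alternatives run on named genes and 39 lost it under at least 1. Junb was the only reversal, at -0.23 with the negative cells of all cKO plates as reference. With 1 or 50 TPM in place of 10 TPM for a positive cell, Il1r2 was positive in 54.5% or 31.8% of positive-gate cells and Cd34 in 18.2% or 0%, and Cd34 in 44.6% or 23.1% of negative-gate cells. No paired analysis was possible because the labels give cells no replicate numbers or animals that could pair the gates. With 22 positive cells, a gene seen in 0 of them may still be in up to 13.6% of such cells (3 of 22, exact upper end 15.4%). Both gates of a genotype came from 1 plate, so gate and plate row cannot be told apart. Between the genotypes, genotype and plate cannot be told apart, and the labels name no animal.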

Other observations

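Of the 385 lower genes 13, Tgm5, Tbx1, Cd200, Grem1 and Ctgf among them, were at 0 in every positive cell, and 1 of the 199 higher genes was at 0 in every negative cell. Mt4, a metallothionein of stratified epithelia, had the largest ratio of any list member (43.9 TPM against listed at 0) from 2 of 22 cells, too few to pass the size rule. Areg, a growth factor of the EGF family, averaged 14.2 against 0.20 TPM from 1 positive cell, and Ptgs2, the inducible cyclooxygenase, 16.4 against 1.10 TPM from 1 of 22 and 2 of 65. Rmnd1, a gene of mitochondrial translation, was the only gene past the size rule in opposite directions in the 2 genotypes, at 20.2 against 7.16 TPM in cKO and 2.93 against 13.8 TPM in dKO; it was chosen after its values were seen.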
